A study of Mus musculus with 24 samples.

Results

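Blood clots when soluble fibrinogen is cut to fibrin, and the liver makes most of the proteins that start, limit and undo that step. Coagulation runs through serine protease zymogens that activate each other and end in thrombin, the product of the prothrombin gene F2. Inhibitors such as antithrombin hold the proteases in check, and plasmin, made from plasminogen, dissolves the clot. Hepatocytes make fibrinogen, most zymogens and most inhibitors, while von Willebrand factor, thrombomodulin and factor VIII come mainly from endothelial cells. The 35 coagulation and fibrinolysis genes described here were chosen by name. Each was read by the array spots that carry its symbol, with 1 probe per gene, the one with the highest mean signal over the 24 arrays. All 35 were on the array among 37074 genes, and 34 were among the 18649 genes tested. The one left out was Plat, which encodes tissue plasminogen activator, whose probe was not well above background on any of 12 GLU+GAL or 12 GLU arrays. A second Plat probe was above background on 0 GLU+GAL arrays and 1 GLU array.

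The livers came from mice of the inbred strain C57BL/6JRcc, labelled female and individually housed. In the GLU+GAL group, 12 mice ate a semi-synthetic diet in which glucose and galactose, in equal shares, gave 32% of energy. In the GLU group, 12 mice ate the same diet with glucose as the only monosaccharide. Both diets held 16% of energy as fat, 20% as protein and 32% as starch, and were fed from 3 to 6 weeks of age. All mice were killed on postnatal day 42, deprived of food and in the light phase, and RNA of the right liver lobe was hybridised with 1 array per mouse. The question was what a partial exchange of glucose for galactose after weaning does in the liver. Every value below is the log2 ratio of a mouse (dye Cy5) to a pool of all mice (dye Cy3), and every difference is the GLU+GAL mean minus the GLU mean ± SE, unless another scale is named. The number of mice per diet, 12, limits the precision. In a whole liver lobe, fewer cells of a type and less RNA per cell cannot be told apart.

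Between 46.6% and 51.3% of an array's spots passed Agilent's background test in Cy5. The array GLU+GAL 4 stood apart, with 36.5% of spots above background in the pool dye, against at least 39.8% on the other arrays, and an SD of log ratios of 0.44, against at most 0.33. The array GLU+GAL 12 went against its label: it was the only 1 with the Y-linked Ddx3y and Eif2s3y above background, and Xist was above background on the other 23. Results are therefore also given without these 2 arrays. All 8 hepatocyte markers of the list used here (albumin, transthyretin and others) were above the detection limit and tested.

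The genes of the 3 fibrinogen chains lie close together on chromosome 3, and their upstream sequences are shown because these chains are the ones compared most closely below. The 250 bases before each start are taken from RefSeq (GRCm38.p6), on the strand of the gene, at chr3:83025903-83026152 (+) for Fga, chr3:83049864-83050113 (-) for Fgb and chr3:83007474-83007723 (+) for Fgg. Capitals mark matches, on either strand, to CTGGGAA, the core of the interleukin-6 response element known from fibrinogen genes, and to GTTAAT, a half-site of the hepatocyte factor HNF1.
Fga: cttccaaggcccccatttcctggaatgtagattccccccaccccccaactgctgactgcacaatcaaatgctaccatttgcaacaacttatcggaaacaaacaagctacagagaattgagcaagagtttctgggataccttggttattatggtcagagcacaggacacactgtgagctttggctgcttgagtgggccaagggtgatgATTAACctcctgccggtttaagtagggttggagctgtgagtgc
Fgb: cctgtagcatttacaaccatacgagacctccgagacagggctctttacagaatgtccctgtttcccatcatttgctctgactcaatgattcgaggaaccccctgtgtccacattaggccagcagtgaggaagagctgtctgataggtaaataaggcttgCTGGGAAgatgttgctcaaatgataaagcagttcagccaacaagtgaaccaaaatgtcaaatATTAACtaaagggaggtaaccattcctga
Fgg: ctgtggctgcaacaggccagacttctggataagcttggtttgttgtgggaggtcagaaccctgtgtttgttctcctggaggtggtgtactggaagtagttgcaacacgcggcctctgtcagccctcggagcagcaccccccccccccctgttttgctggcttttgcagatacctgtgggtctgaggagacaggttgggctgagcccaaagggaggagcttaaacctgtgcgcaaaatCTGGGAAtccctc
Fgb held CTGGGAA 91 to 85 bases before its start, and Fgg held it 13 to 7 bases before its start. Fga held no exact match to it in this window. GTTAAT was matched on the opposite strand 43 to 38 bases before the start of Fga and 29 to 24 before that of Fgb. Of 32851 RefSeq windows of the same length, 9.1% held CTGGGAA and 6.43% held GTTAAT. Among the 26 coagulation and fibrinolysis genes with such a window, 4 held the first and 4 the second. A match of letters is a description and not evidence of binding.

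Across the 34 tested genes the livers of GLU+GAL mice had slightly lower values than those of GLU mice, and no gene passed the test across the whole array. The GLU+GAL mean was below the GLU mean for 28 of the 34, against 49.2% of all genes tested, and above it for 6. At an unadjusted p under 0.05 in limma, 11 of the 34 were lower, against 2.66% of all genes tested, and 1 was higher, against 1.65%. These shares depend on brightness. Among the brightest genes outside the list, described further below, 76.6% had a lower mean and 11.2% were lower at that p. After Benjamini-Hochberg adjustment over all genes, 0 of the 34 were past 0.05, against 0% of all genes tested. The lowest adjusted p was 0.716 among the 34 (Fgb) and 0.523 among all genes, while 803 of all genes had an unadjusted p under 0.05. The median difference over the 34 was -0.093, against 0.0013 over all genes tested. For each mouse, the median over the 34 ran from -0.046 to 0.18 in GLU+GAL livers, against 0.011 to 0.24 in GLU livers, so the diets overlapped. Without the arrays GLU+GAL 4 and 12, all 12 genes at an unadjusted p under 0.05 kept their direction and 10 of them a p under 0.05, the exceptions being Fgg and Fgl1. These genes share an organ and much of their regulation, so their counts are not those of independent genes.

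**Figure D1:**
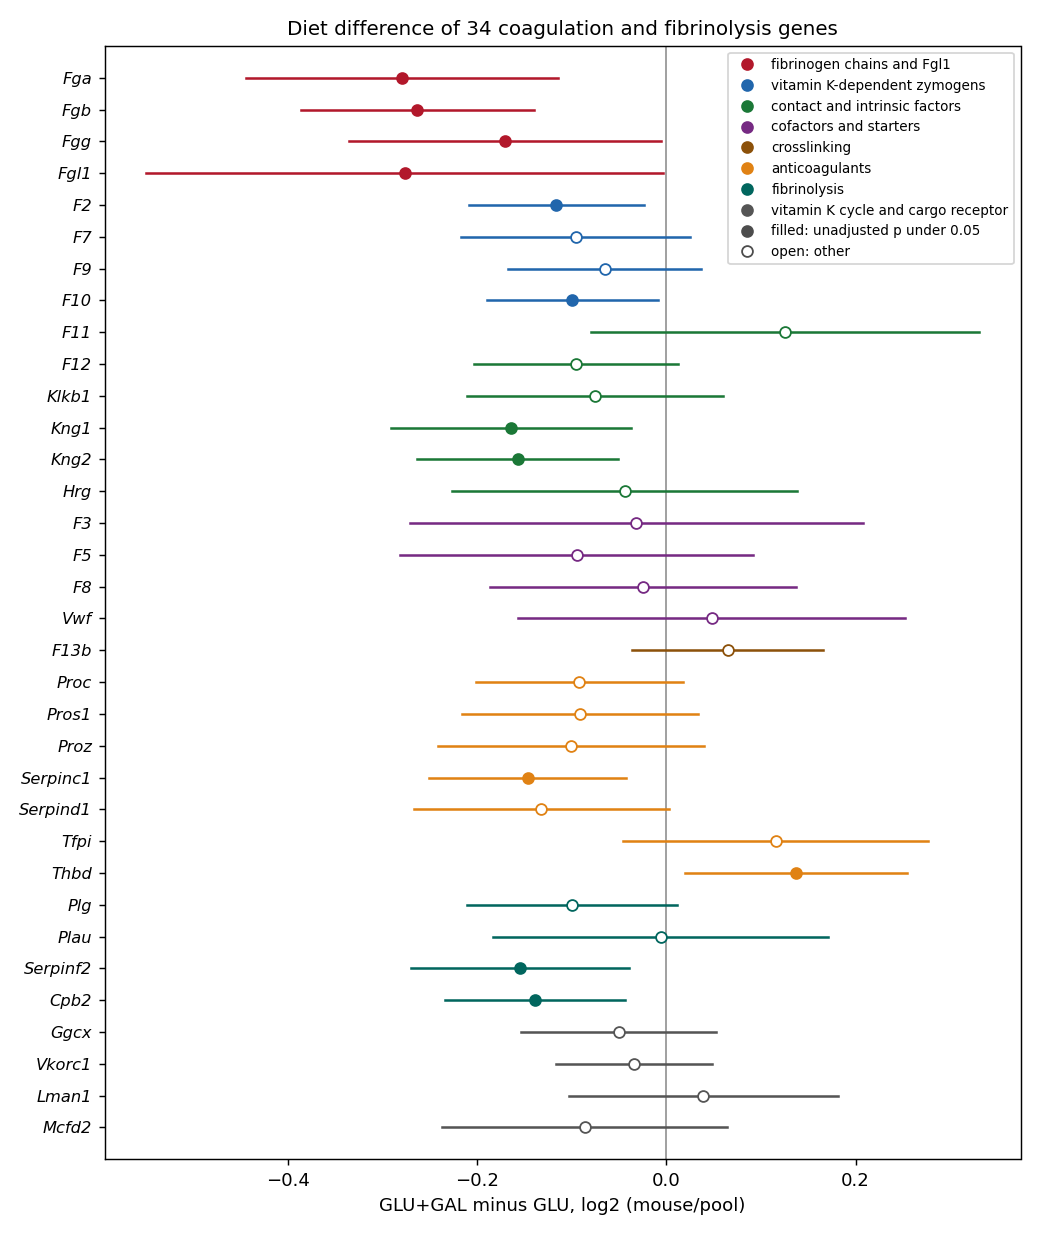
Difference between diets (GLU+GAL mean minus GLU mean, log2 ratio to the pool, x axis) for the 34 tested coagulation and fibrinolysis genes (y axis), coloured by role, with 95% confidence intervals from limma over 12 mice per diet. Filled points, 11 below 0 and 1 above, had an unadjusted p under 0.05, and none passed adjustment over all genes.

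The fibrinogen chains and fibrinogen-like 1 (Fgl1, a hepatocyte protein of the same family) were the role with the widest differences, from -0.28 to -0.17. All 4 were lower in GLU+GAL livers at an unadjusted p under 0.05, against 2.66% of all genes tested. Fgb, the beta chain, read 0.16, 0.28 and 0.49 (lowest, median, highest) in GLU+GAL livers, against 0.20, 0.58 and 0.89 in GLU livers. All 12 GLU+GAL livers were below the GLU mean, and 3 GLU livers lay within the range of the GLU+GAL livers. Its difference was -0.26 ± 0.060 (0.833-fold), with an unadjusted p of 0.000155 and an adjusted p of 0.716 in limma. Within slides 1, 2 and 3, each with 4 mice per diet, the differences of Fgb were -0.32, -0.24 and -0.23.

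Fga, the alpha chain, read 0.15, 0.29 and 0.49 in GLU+GAL livers, against -0.020, 0.58 and 0.97 in GLU livers. Every GLU+GAL liver was again below the GLU mean, and the spread was narrower in GLU+GAL livers (SD 0.13) than in GLU livers (SD 0.26, n = 12 each). The difference of Fga was -0.28 ± 0.080 (0.824-fold, unadjusted p = 0.00173, adjusted p = 0.844 in limma), and -0.43, -0.20 and -0.20 within slides 1, 2 and 3. The lowest GLU liver for both chains was the same mouse, GLU 3, which lay below every GLU+GAL liver for Fga. Without it the difference was -0.30 for Fgb (adjusted p = 0.0706 in limma) and -0.34 for Fga (adjusted p = 0.135). GLU 3 was chosen after seeing the data, and leaving out any other single array gave less negative differences of both chains. The least negative, without GLU 10, were -0.23 for Fgb and -0.25 for Fga.

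Fga was read by 2 probes that both were above background on all 24 arrays, and they gave unlike differences, so both are shown. The files place them at chr3:82835678-82835737 (+) and chr3:82837260-82837319 (+) of mm9 and assign both to the Fga transcript, with no exon or UTR stated. They are printed 5′ to 3′ with nothing capitalised.
Fga, brighter probe: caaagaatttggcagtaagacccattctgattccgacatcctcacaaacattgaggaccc
Fga, dimmer probe: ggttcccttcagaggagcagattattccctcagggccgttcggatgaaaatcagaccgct
The brighter probe gave the difference of -0.28 above. The dimmer one, 1582 bases further along the genome, gave -0.048 ± 0.10, and across the 24 mice its values had a correlation of 0.40 with those of the brighter probe. With the mean of both probes in place of the brighter one, the difference was -0.16 ± 0.076 (unadjusted p = 0.0414 in limma).

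Fgg, the gamma chain, read -0.40, -0.17 and 0.20 in GLU+GAL livers, against -0.29, 0.058 and 0.39 in GLU livers. The ranges overlapped over most of their length, and 9 of 12 GLU+GAL livers were below the GLU mean. Its difference was -0.17 ± 0.080 (unadjusted p = 0.0427 in limma), and -0.14, -0.12 and -0.25 within slides 1, 2 and 3. Fgl1 varied more between mice than any chain, at -0.87, -0.47 and 0.23 in GLU+GAL livers, against -0.74, -0.21 and 0.59 in GLU livers. Its difference was -0.28 ± 0.13 (unadjusted p = 0.0473 in limma), with 10 of 12 GLU+GAL livers below the GLU mean and -0.20, -0.25 and -0.38 within the slides. A second Fgl1 probe gave -0.068 ± 0.057, and its correlation with the first across mice was 0.27. Of the 12 genes at an unadjusted p under 0.05, Fgg and Fgl1 were those whose p most often exceeded 0.05 when 1 array was left out. Leaving out each array in turn gave differences from -0.20 to -0.14 for Fgg and from -0.34 to -0.20 for Fgl1, with an unadjusted p over 0.05 in 14 and 17 of 24 cases. Without the arrays GLU+GAL 4 and 12 together, the difference was -0.13 for Fgg (unadjusted p = 0.122 in limma), -0.21 for Fgl1 (unadjusted p = 0.144), -0.24 for Fgb and -0.28 for Fga.

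The 3 chains assemble into 1 protein, and whether they differed between diets by unlike amounts was tested per mouse. The difference between diets was more negative for Fga than for Fgb by 0.016 ± 0.055 (permutation p = 0.765), more negative for Fga than for Fgg by 0.11 ± 0.099 (permutation p = 0.286) and more negative for Fgb than for Fgg by 0.092 ± 0.059 (permutation p = 0.132, 2-sided, 100000 resamples). Adjusted over the 3 comparisons these were 0.765, 0.429 and 0.396, so unlike differences of the chains were not shown. In Cy5 alone the difference was more negative for Fga than for Fgb by 0.16 and with Agilent's processed signals by 0.12 (permutation p adjusted over the 3 comparisons 0.0723 and 0.124), so this comparison moved with the scaling. With the mean of both Fga probes, the difference between diets was less negative for Fga than for Fgb by 0.099.

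**Figure D2:**
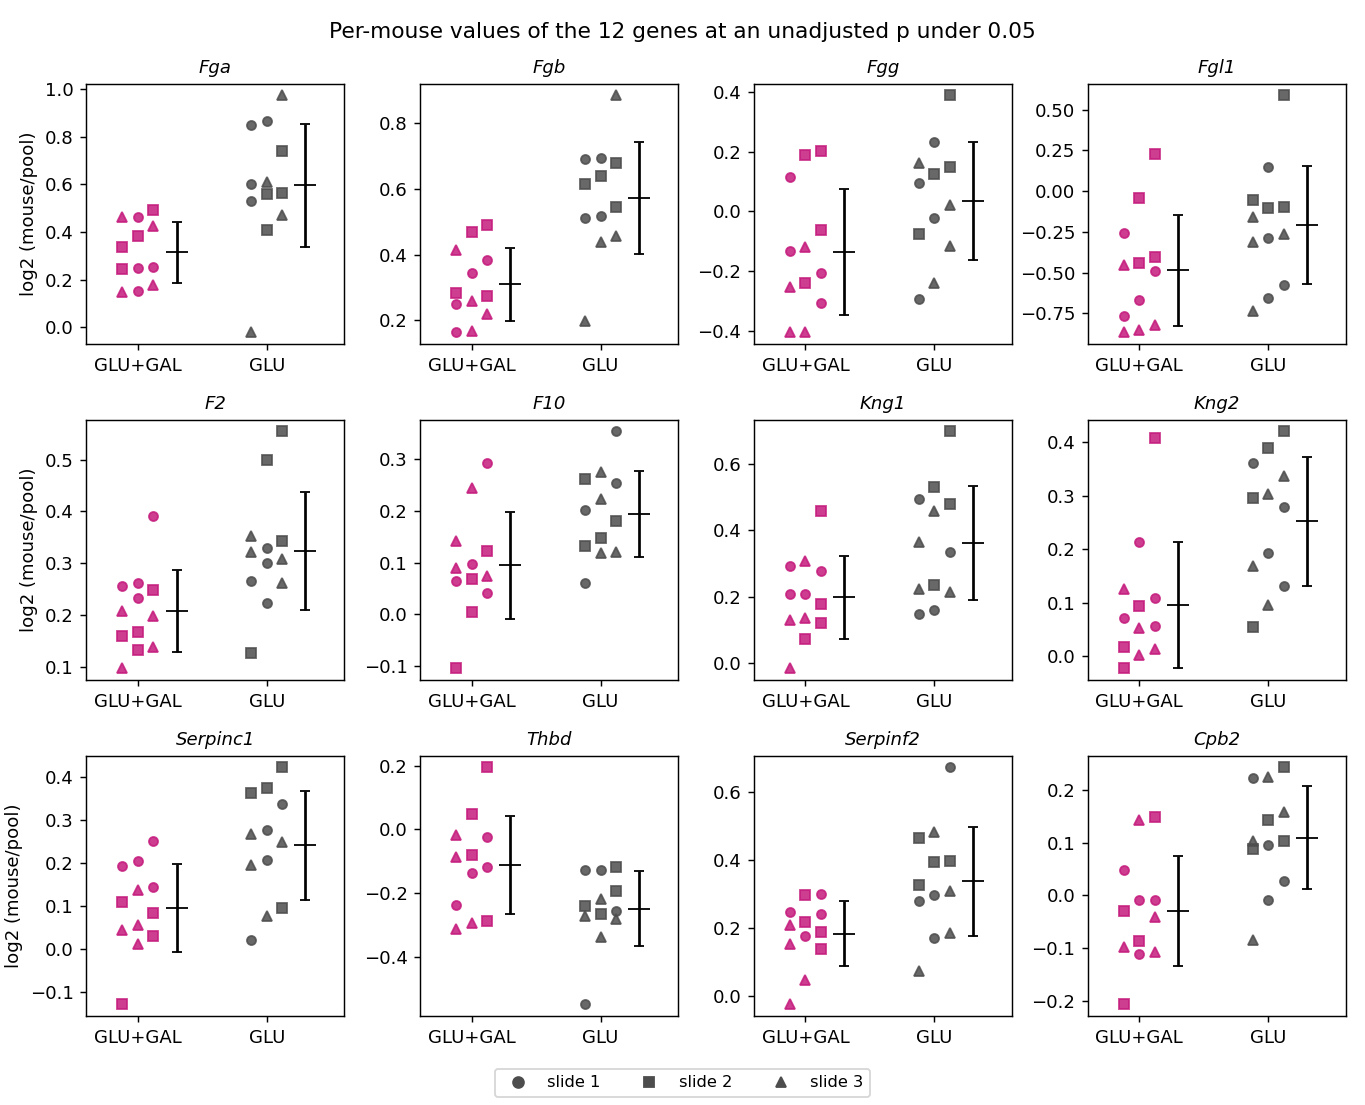
Log2 ratio to the pool (y axis) of each mouse for the 12 genes at an unadjusted p under 0.05, GLU+GAL left and GLU right, 12 mice each. Marker shape gives the slide, and bars are mean ± SD. The diets overlap in every panel, with GLU+GAL lower in 11 panels and higher for Thbd.

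The role of vitamin K-dependent zymogens held F2, F7, F9 and F10, secreted proteases that need gamma-carboxylation to bind membranes. Proc is counted with the anticoagulants. All 4 had means below GLU, against 49.2% of all genes tested, and 2 were lower at an unadjusted p under 0.05, against 2.66%. These 2, F2 and F10, were among the brightest genes. Of equally bright genes outside the list, 76.6% had a lower mean and 11.2% were lower at that p. F2, prothrombin, read 0.098, 0.20 and 0.39 in GLU+GAL livers, against 0.13, 0.31 and 0.55 in GLU livers, with 11 of 12 GLU+GAL livers below the GLU mean. Its difference was -0.12 ± 0.045 (unadjusted p = 0.0161 in limma), but within slide 1 it was 0.0057, against -0.20 and -0.15 within slides 2 and 3. F10, which cleaves prothrombin once activated, read -0.10, 0.082 and 0.29 in GLU+GAL livers, against 0.061, 0.19 and 0.35 in GLU livers. The diets overlapped in F10, 10 of 12 GLU+GAL livers were below the GLU mean, and the difference was -0.10 ± 0.044 (unadjusted p = 0.0319 in limma), or -0.094, -0.16 and -0.047 by slide. Leaving out GLU 8, GLU 9, GLU+GAL 1 or GLU+GAL 10 brought the p of F10 over 0.05, at differences of -0.092, -0.085, -0.092 and -0.082. F7, the partner of tissue factor in starting the cascade, gave -0.096 ± 0.059 (p = 0.116), and F9, the factor missing in haemophilia B, gave -0.065 ± 0.050 (p = 0.2), neither past 0.05.

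Of the contact and intrinsic factors, the kininogens Kng1 and Kng2, which carry the kallikrein zymogen and release bradykinin, were lower in GLU+GAL livers. Kng1 read -0.016, 0.19 and 0.46 in GLU+GAL livers, against 0.15, 0.35 and 0.70 in GLU livers, a difference of -0.16 ± 0.062 (unadjusted p = 0.0134 in limma) with 11 of 12 GLU+GAL livers below the GLU mean. Its other probes gave -0.14 and -0.12, so the 3 probes had one direction. Kng2 read -0.022, 0.064 and 0.41 in GLU+GAL livers, against 0.055, 0.29 and 0.42 in GLU livers, a difference of -0.16 ± 0.052 (unadjusted p = 0.00532 in limma). All but 1 of the GLU+GAL livers lay below the GLU mean of Kng2, and the remaining one was close to the highest GLU liver. By slide, the differences were -0.038, -0.28 and -0.18 for Kng1 and -0.13, -0.17 and -0.18 for Kng2. The 2 kininogens are close paralogs, and whether a probe of one also binds the transcript of the other was not tested.

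The remaining contact and intrinsic genes had an unadjusted p over 0.05. F12, which starts the contact pathway, gave -0.096 ± 0.053 (p = 0.0803), Klkb1, plasma prekallikrein, gave -0.075 ± 0.066 (p = 0.263) and the histidine-rich glycoprotein gene Hrg gave -0.044 ± 0.089 (p = 0.625). F11, the zymogen that activates factor IX, was the only one of the 6 with a higher mean in GLU+GAL livers, at 0.13 ± 0.10 (p = 0.22), and its values ran from -0.38 to 0.43 in GLU+GAL livers, against -0.61 to 0.23 in GLU livers.

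The cofactors and starters had small differences beside wide errors. F5, the cofactor of the prothrombin-cleaving complex, gave -0.095 ± 0.091 (p = 0.307). F8, the factor missing in haemophilia A, gave -0.025 ± 0.079 (p = 0.758), and Vwf, its carrier in plasma, gave 0.048 ± 0.10 (p = 0.634). F3, tissue factor, gave -0.032 ± 0.12 (p = 0.788), with a 95% interval from -0.27 to 0.21. F13b, the carrier subunit of the enzyme that crosslinks fibrin, had a higher mean in GLU+GAL livers by 0.065 ± 0.049 (p = 0.198), with 10 of 12 GLU+GAL livers above the GLU mean. None of these 5 genes passed an unadjusted p of 0.05 in limma.

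Among the 7 anticoagulant genes, 1 was lower and 1 higher at an unadjusted p under 0.05, against 2.66% and 1.65% of all genes tested. Serpinc1, antithrombin, read -0.13, 0.096 and 0.25 in GLU+GAL livers, against 0.022, 0.26 and 0.42 in GLU livers, and 11 of 12 GLU+GAL livers were below the GLU mean. The difference was -0.15 ± 0.051 (unadjusted p = 0.00745 in limma), and -0.013, -0.29 and -0.14 by slide. A second, far dimmer Serpinc1 probe (mean Cy5 signal 182, against 237733) gave 0.035 ± 0.063 and a correlation of -0.27 with the first across mice. The mean of both probes, each with equal weight, gave -0.056 (unadjusted p = 0.174 in limma). The difference of antithrombin therefore rests on the brighter probe.

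Thbd, thrombomodulin, the endothelial receptor that turns thrombin towards activating protein C, had the largest positive difference of the 34 genes. It read -0.31, -0.10 and 0.20 in GLU+GAL livers, against -0.55, -0.25 and -0.12 in GLU livers. The lowest GLU+GAL livers lay within the GLU range, while 9 of 12 were above the GLU mean. Its difference was 0.14 ± 0.057 (1.1-fold, unadjusted p = 0.0243 in limma), and 0.14, 0.17 and 0.10 by slide. The Thbd probe was dim, with a mean Cy5 signal of 209, but above background on all 24 arrays. Its unadjusted p in limma was over 0.05 in Cy5 alone (0.0783), with median centring (0.181) and for the authors' deposited values (0.0681). It stayed under 0.05 with Agilent's processed signals (0.0295) and with array weights (0.00647). The difference was positive in each of these settings. The GLU liver at -0.55 was GLU 12, and without it the difference was 0.11 (unadjusted p = 0.052). Without GLU+GAL 1 it was likewise 0.11 (unadjusted p = 0.0522). Over 9 markers of liver endothelium, 5 had a lower and 4 a higher mean in GLU+GAL livers, none at an unadjusted p under 0.05, and their mean level per mouse ran from -0.20 to 0.23 in GLU+GAL livers, against -0.12 to 0.13 in GLU livers.

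The other anticoagulant genes had an unadjusted p over 0.05 in limma. Tfpi, the inhibitor of the tissue factor complex, gave 0.12 ± 0.079 (p = 0.153), with 11 of 12 GLU+GAL livers above the GLU mean. Proc, the zymogen of activated protein C, gave -0.092 ± 0.053 (p = 0.0949) and its cofactor Pros1 gave -0.091 ± 0.061 (p = 0.145). A second, dimmer Pros1 probe, above background on all 24 arrays, gave a more negative -0.15 ± 0.060. Its correlation with the first Pros1 probe across mice was 0.56. Proz, the cofactor of an inhibitor of factor Xa, gave -0.10 ± 0.069 (p = 0.154). Serpind1, heparin cofactor II, gave -0.13 ± 0.066 (p = 0.0537).

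Fibrinolysis was represented by 4 tested genes. The 2 that restrain plasmin were lower in GLU+GAL livers at an unadjusted p under 0.05, against 2.66% of all genes tested. Serpinf2, the main plasmin inhibitor, read -0.026, 0.20 and 0.30 in GLU+GAL livers, against 0.073, 0.32 and 0.67 in GLU livers. All 12 GLU+GAL livers were below the GLU mean, and the difference was -0.16 ± 0.056 (unadjusted p = 0.0102 in limma), or -0.11, -0.19 and -0.17 by slide. Cpb2, a carboxypeptidase that removes the fibrin ends to which plasminogen binds, read -0.21, -0.035 and 0.15 in GLU+GAL livers, against -0.085, 0.10 and 0.24 in GLU livers. The GLU+GAL median was below every GLU liver but 1, and the difference was -0.14 ± 0.046 (unadjusted p = 0.00571 in limma), or -0.10, -0.19 and -0.13 by slide. Plg, plasminogen, gave -0.10 ± 0.054 (p = 0.0765). A second, dimmer Plg probe (mean Cy5 signal 185, against 3240) gave 0.012 ± 0.14. Plau, urokinase, gave -0.0061 ± 0.086 (p = 0.944) and was above background on 11 of 12 arrays of each diet.

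The genes that fit the factors for secretion did not pass an unadjusted p of 0.05. Ggcx, the vitamin K-dependent carboxylase, gave -0.050 ± 0.050 (p = 0.326), and Vkorc1, the reductase that recycles vitamin K and the target of warfarin, gave -0.034 ± 0.040 (p = 0.406). Lman1 and Mcfd2, the 2 subunits of the receptor that carries factors V and VIII out of the endoplasmic reticulum, gave 0.039 ± 0.069 (p = 0.579) and -0.086 ± 0.073 (p = 0.25). A second, dimmer Mcfd2 probe gave 0.017 ± 0.071. Ggcx and F5 were the only 2 of the 34 whose difference depended on the slide at an unadjusted p under 0.05 (p = 0.0115 and 0.0114), and neither passed adjustment over all genes. Over all genes tested, 8.46% had such a p, so 2 of 34 was no more than the background.

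How the values were made bore on these differences, most for the brightest genes. Agilent's scanner reads very bright spots a second time at a lower detector gain, and 527 of the tested genes were read that way in both dyes on all 24 arrays, among them 11 of the 34. Over these 11 the median difference was -0.15 as a ratio to the pool and -0.056 in Cy5 alone, quantile-normalised between arrays. Over the other 23 tested coagulation and fibrinolysis genes it was -0.065 as a ratio and -0.061 in Cy5 alone. Among the 516 equally bright genes outside the list, 76.6% had a lower mean in GLU+GAL livers as a ratio and 49% in Cy5 alone, with medians of -0.056 and 0.00081. At an unadjusted p under 0.05, 11.2% of these 516 were lower as a ratio. Of the 11 in the list, Fgb, Fgg, Fgl1, F2, F10, Kng1, Serpinc1 and Serpinf2 were lower at that p. Proc, Proz and Vkorc1 were not.

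In Cy5 alone the differences were -0.094 for Fgb, -0.077 for Fgg, -0.038 for F2, -0.035 for F10, -0.027 for Kng1 and -0.011 for Serpinc1, each less than 0.5 of the difference as a ratio. They were -0.26 for Fga, -0.24 for Fgl1, -0.13 for Kng2, -0.12 for Cpb2, -0.097 for Serpinf2 and 0.13 for Thbd. All 12 kept their direction in Cy5 alone, and 3 of them (Fga, Kng2 and Cpb2) an unadjusted p under 0.05 in limma. The pool should be the same on every array. Its own Cy3 signal, quantile-normalised, differed between diets by 0.080 for Fgb, by 0.041 for Kng1 and by -0.043 for Thbd. In the log2 values of the authors' deposited table, 10 of the 12 kept their direction and Fga alone had an unadjusted p under 0.05 (difference -0.20, p = 0.0291 in limma). With each array centred on its median in place of the loess fit, all 12 kept their direction and again Fga alone did (difference -0.23, p = 0.0448). Over all genes tested, lower values at an unadjusted p under 0.05 made up 2.33% in Cy5 alone, 1.67% in the deposited table and 1.42% with median centring.

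**Figure D3:**
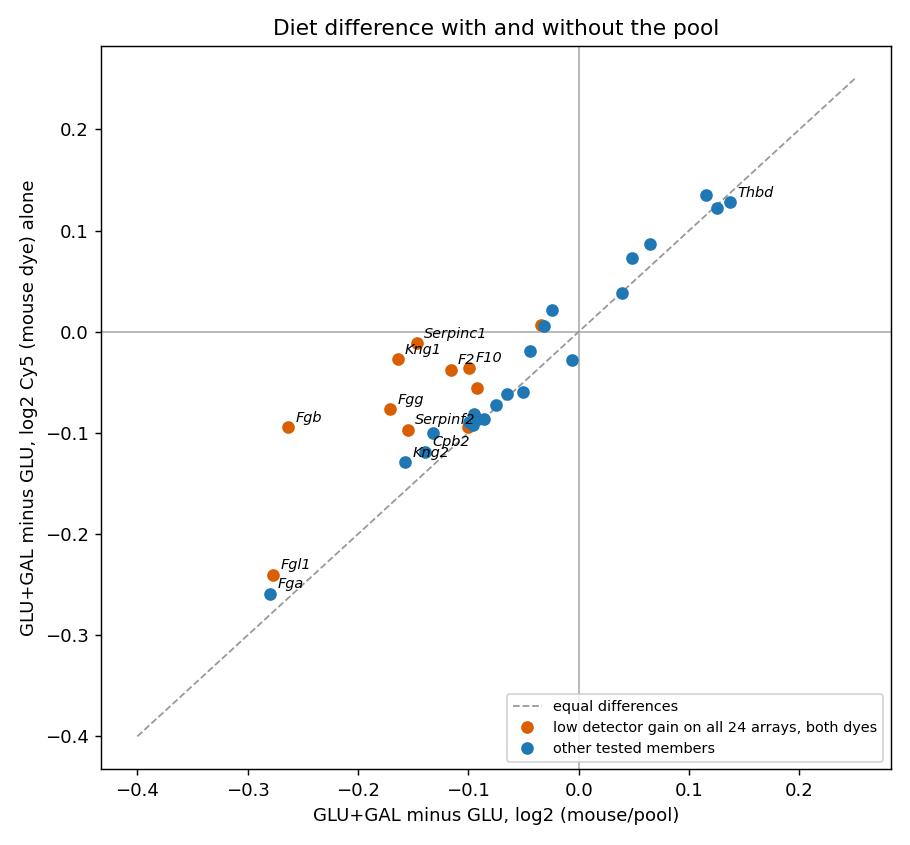
Difference between diets of the 34 tested genes as a log2 ratio to the pool (x axis) and in log2 Cy5 alone (y axis), with a dashed line where both are equal. Orange points are the 11 genes read at the lower detector gain on all 24 arrays in both dyes. Fgb, Kng1, Serpinc1 and F2 lie above the line, nearer to 0 in Cy5 alone, and Fga lies near it.

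Fibrinogen chains varied together from mouse to mouse, closely for Fgb with each of the others. Across the 24 mice Fga and Fgb had r = 0.85 (permutation p = 1e-05, adjusted 6e-05) and rho = 0.85 (permutation p = 1e-05, adjusted 9e-05), and Fgb and Fgg had r = 0.74 (permutation p = 6e-05, adjusted 0.00027) and rho = 0.76 (permutation p = 5e-05, adjusted 0.0003), with p adjusted over the 18 pairs computed and 1e-05 the smallest p that the resamples allow. Fga and Fgg had r = 0.45 (permutation p = 0.027, adjusted 0.0561) and rho = 0.49 (permutation p = 0.0159, adjusted 0.0357). With the diet means removed, r was 0.76 for Fga with Fgb, 0.70 for Fgb with Fgg and 0.29 for Fga with Fgg. Without the 2 mice farthest from the median of the first gene, r was 0.79, 0.73 and 0.38 in the same order of pairs. Within slides 1, 2 and 3, with 8 mice each, r was 0.81, 0.82 and 0.91 for Fga with Fgb, 0.67, 0.58 and 0.92 for Fgb with Fgg and 0.22, 0.32 and 0.82 for Fga with Fgg. In the pool dye, where every array carries the same RNA, r was 0.31, 0.14 and 0.34 for these pairs, and in Cy5 alone 0.57, 0.52 and 0.37. Fgl1 followed Fgb at r = 0.60 (permutation p = 0.00185, adjusted 0.00666) and rho = 0.65 (permutation p = 0.00073, adjusted 0.00263), and within slides at 0.54, 0.61 and 0.66. Its r with Fgb was 0.23 in Cy5 alone and 0.050 in the pool dye, and 0.85 within GLU+GAL livers, against 0.31 within GLU livers, a difference that was not tested.

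**Figure D4:**
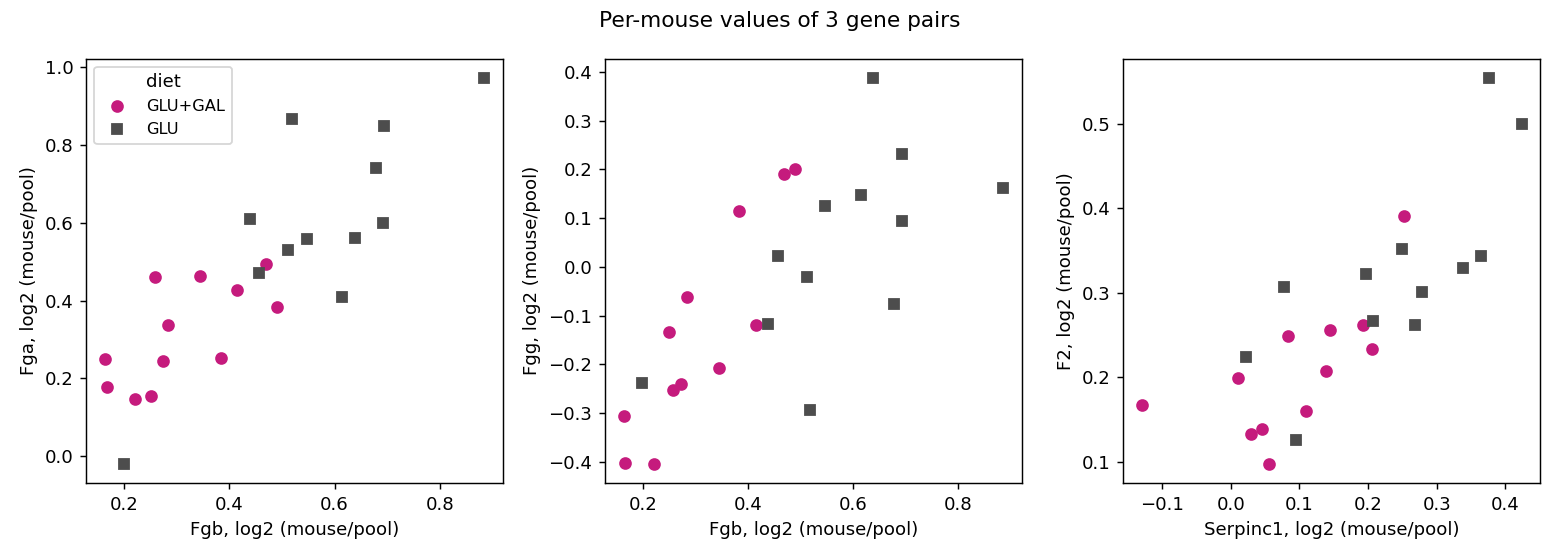
Log2 ratios to the pool of Fga against Fgb, Fgg against Fgb, and F2 against Serpinc1 in 12 GLU+GAL and 12 GLU mice, 1 point per mouse. Mice low for one gene of a pair tend to be low for the other in each panel, with r of 0.85, 0.74 and 0.80.

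Of the 18 pairs chosen by shared function or position, 7 passed an adjusted p of 0.05 by Pearson's r and 8 by Spearman's rho. Earlier results of these data were known when the pairs were chosen. The count therefore carries no test, and the p of a pair is not that of a pair fixed before the data were seen. Prothrombin and antithrombin, the inhibitor of its product thrombin (F2 and Serpinc1), had r = 0.80 (permutation p = 1e-05, adjusted 6e-05) and rho = 0.81 (permutation p = 1e-05, adjusted 9e-05). Their r was 0.72 after diet means were removed, 0.73 without the 2 farthest mice, and 0.69, 0.86 and 0.68 within slides. The paralogs Kng1 and Kng2 had r = 0.80 (permutation p = 1e-05, adjusted 6e-05) and rho = 0.72 (permutation p = 0.00014, adjusted 0.00063), 0.73 without the 2 farthest mice and 0.57, 0.94 and 0.62 within slides. The endothelial pair F8 and Vwf had r = 0.59 (permutation p = 0.00579, adjusted 0.0149) and rho = 0.56 (permutation p = 0.00533, adjusted 0.016), 0.50 without the 2 farthest mice and 0.61, 0.65 and 0.62 within slides. The neighbouring genes F7 and F10 had r = 0.56 (permutation p = 0.00414, adjusted 0.0124) and rho = 0.52 (permutation p = 0.0109, adjusted 0.0282), 0.59 without the 2 farthest mice and 0.53, 0.39 and 0.69 within slides. In Cy5 alone r was 0.44, 0.50, 0.56 and 0.32 for these 4 pairs, and in the pool dye 0.25, 0.19, 0.36 and -0.098.

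The other 10 pairs did not pass by either measure, and they included several protein partners. Plasminogen and the inhibitor of its product plasmin (Plg and Serpinf2) had r = 0.32 (permutation p = 0.133, adjusted 0.154) and rho = 0.20 (permutation p = 0.34). Lman1 with Mcfd2 had r = 0.39 (permutation p = 0.0576, adjusted 0.0943) and rho = 0.42 (permutation p = 0.0437). Protein C and protein S (Proc and Pros1) had r = -0.020 (permutation p = 0.927) and rho = -0.044 (permutation p = 0.836). Over the 10 pairs r ran from -0.32 for Ggcx with Vkorc1 to 0.45 for the neighbours F11 and Klkb1, which had 0.29 without the 2 farthest mice. The remaining pairs were F2 with Plg (0.32), F2 with Fgb (0.40), Plg with Fgb (0.36), F5 with F8 (0.31) and Hrg with Kng1 (0.24). With the diet means removed, r was 0.15, 0.053, 0.14, 0.31 and 0.22 for these pairs in the same order.

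As a description over all 561 pairs of the 34 genes, with diet means removed, the median r was 0.19 (quartiles -0.0088 and 0.38), and 11.1% of pairs had r at or above 0.5. Over all pairs of 18502 tested genes the median was 0.0090 (quartiles -0.19 and 0.21), with 4.76% at or above 0.5. Within roles the median r was 0.59 over the chains and Fgl1, 0.45 over the contact and intrinsic factors, 0.42 over the cofactors and starters and 0.35 over the zymogens. It was 0.22 over the anticoagulants, 0.21 over the vitamin K cycle and cargo receptor and 0.15 over fibrinolysis. All points share the array of their mouse and its normalisation. Outside the 18 pairs tested above, the closest were Proz with Serpinc1 (0.75) and F10 with Serpind1 (0.71). Each gene is read here by 1 probe. The other Proz probes, dimmer but above background on all 24 arrays, had r of 0.19 and -0.069 with the one used. The second Serpinc1 probe had -0.27 with its own. The lowest of all pairs was -0.52, for Serpind1 with Thbd, and F7 with Fgl1 had -0.49.

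**Figure D5:**
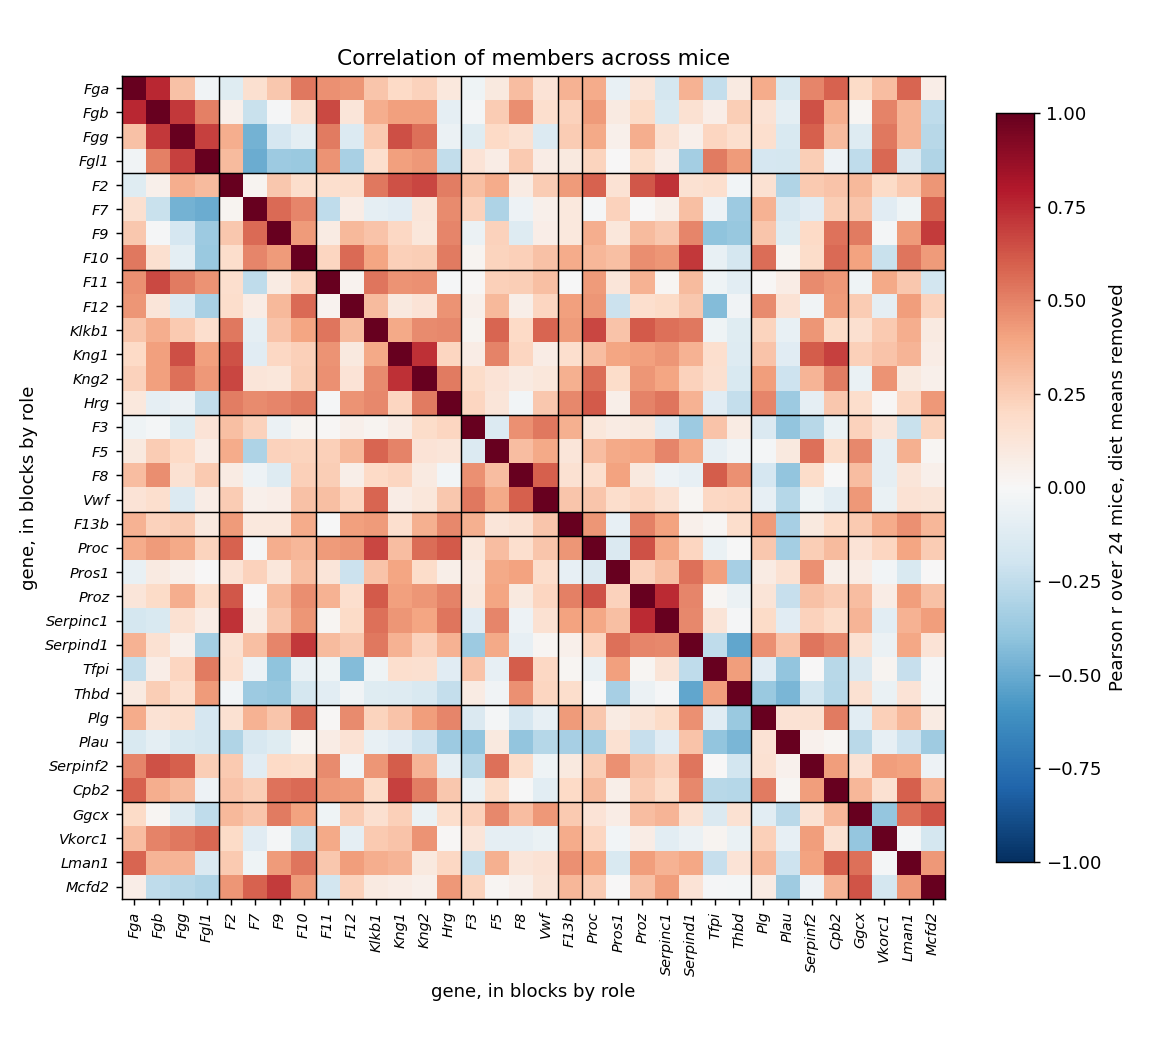
Pearson r over 24 mice, diet means removed (colour), between the 34 tested genes on both axes, in blocks by role. The block of the fibrinogen chains and Fgl1 holds r from -0.036 to 0.76, and F7 is negative with Fgg and Fgl1.

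Among all tested genes, those most like the chains were ranked by their mean r with Fga, Fgb and Fgg, diet means removed. Serpinf2 came first among the other coagulation and fibrinolysis genes, with a mean r of 0.57 (rank 24 of all), and F11 next with 0.54 (rank 41). The 10 genes outside the list with the highest mean r were an expressed sequence tag with no gene symbol (0.65), the complement chains C8a (0.65) and C8b (0.64), the protease inhibitor Mug2 (0.63), Ppib (0.63), Derl3 (0.62), Olfr1535 (0.61), Ighmbp2 (0.61), Pdia6 (0.61) and 1600014C10Rik (0.60). Ppib, Pdia6 and Derl3 encode proteins of the endoplasmic reticulum. The 95th and 99th percentiles of the mean r over all tested genes were 0.31 and 0.44. Between diets, the sequence tag differed by -0.16 ± 0.069 (unadjusted p = 0.0313 in limma) and C8a by -0.28 ± 0.13 (unadjusted p = 0.0429). The others of the 10 had an unadjusted p over 0.05. They were C8b (-0.13 ± 0.12), Mug2 (-0.13 ± 0.11), Ppib (0.0011 ± 0.054), Derl3 (0.032 ± 0.35), Olfr1535 (-0.0061 ± 0.12), Ighmbp2 (-0.0058 ± 0.048), Pdia6 (-0.023 ± 0.11) and 1600014C10Rik (0.012 ± 0.064).

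Genes of the pathway outside the 35 were read for comparison. Of 25 such genes, 18 were tested, 15 of them with a lower mean in GLU+GAL livers, and 4 lower and 0 higher at an unadjusted p under 0.05 in limma, none past adjustment. The 4 were Serping1, the C1 inhibitor that also blocks the contact proteases, at -0.18 ± 0.049 (p = 0.000839), Habp2, a protease that can cleave factor VII, at -0.11 ± 0.043 (p = 0.015), Serpina10, the inhibitor of factor Xa that needs protein Z, at -0.13 ± 0.057 (p = 0.0354), and Serpine2, an inhibitor of thrombin, at -0.24 ± 0.10 (p = 0.0291). The median difference over the 18 was -0.065, against 0.0013 over all genes tested. Of all genes tested, 49.2% had a lower mean, and 2.66% were lower and 1.65% higher at an unadjusted p under 0.05.

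Several markers of other processes and cell types also had lower means in GLU+GAL livers. The counts below stand beside 49.2% of all genes tested with a lower mean. At an unadjusted p under 0.05 in limma, 2.66% of all genes tested were lower and 1.65% higher. Of 12 genes of the acute-phase response, in which hepatocytes also make more fibrinogen, 8 had a lower mean in GLU+GAL livers and 5 were lower at an unadjusted p under 0.05 in limma, with a median difference of -0.15 and mean levels per mouse of -0.26 to 0.24 in GLU+GAL livers, against -0.17 to 0.31 in GLU livers. The 5 were Saa1 (-0.33), Saa2 (-0.39), Saa3 (-0.54), Hpx (-0.24) and Steap4 (-0.22). All 9 markers of Kupffer cells, the macrophages of the liver, had a lower mean in GLU+GAL livers and 5 were lower at an unadjusted p under 0.05 (median difference -0.22, mean levels -0.60 to 0.32 in GLU+GAL livers, against -0.18 to 0.76 in GLU livers). Of 8 hepatocyte markers, 6 had a lower mean and 3 were lower at an unadjusted p under 0.05, namely Alb (-0.17), Apoa1 (-0.22) and Hnf4a (-0.16), with mean levels of -0.026 to 0.45 in GLU+GAL livers, against 0.062 to 0.51 in GLU livers. Of 7 platelet and megakaryocyte markers, 4 were above background and tested, all 4 with a higher mean in GLU+GAL livers and 1 at an unadjusted p under 0.05 (Pf4, 0.14 ± 0.062), with mean levels of -0.12 to 0.14 in GLU+GAL livers, against -0.30 to 0.090 in GLU livers. Of 5 stellate cell markers, 3 had a lower mean and none passed an unadjusted p of 0.05, with mean levels of -0.20 to 0.27 in GLU+GAL livers, against -0.058 to 0.14 in GLU livers. The part of these cells and of the acute-phase response in the differences above was not tested.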

How the data were processed

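Liver RNA of 24 mice was measured on 2-colour Agilent arrays, on 3 slides with 8 arrays each and 4 mice per diet on each slide. Per the file headers and the submitters' processing notes, spot intensities were extracted from the scans with Agilent Feature Extraction 10.7.3.1, and they were deposited without normalisation between arrays. Per the labels, each mouse was in Cy5 and an equal mixture of all samples in Cy3, with no dye swap, so a dye effect of a probe does not cancel. A separate table that the authors deposited holds log2 values of the same arrays. Each of its columns matched the Cy5 signal of its own array best (lowest correlation 0.988) and had a median of 8.6, no source used here gives its scaling, and it served as an alternative.

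From the intensities, the background was corrected with normexp (offset 50), and log2 ratios of Cy5 to Cy3 were loess-normalised within each array in limma 3.58.1 (R 4.3.3). Spots of a probe were averaged, and each gene was read by its brightest probe. A gene was tested if 6 or more arrays of either diet had Cy5 well above background, which a gene high in one diet alone can meet. Diets were compared with lmFit and eBayes over all 24 arrays, with Benjamini-Hochberg adjustment over all tested genes and a threshold of 0.05. The test was checked on simulated data. Pairs of genes and differences between chains were tested by permutation over mice (100000 resamples). The p of a pair took both diets together, with the diet means left in, so a shared difference between diets adds to it. The genes, roles, pairs and marker lists were chosen with earlier results of these data known, so counts over them carry no test. All 34 tested genes are named, values per mouse are given for the chains and for each gene at an unadjusted p under 0.05, and the 10 genes most like the chains are named by their mean r. Alternatives covered the background correction, the normalisation, Cy5 alone, the deposited table, the filter, the probe rule, the slide or the replicate number as a block, each slide alone, array weights, and leaving out each array. Promoter windows came from RefSeq (GRCm38.p6), in which 35 of 35 symbols matched and 26 had a window.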

Additional observations from a re-analysis of the deposited data

How the results depend on the processing

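Of the 34 coagulation and fibrinolysis genes tested, 11 were lower and 1 higher in GLU+GAL livers at an unadjusted p under 0.05 in limma. Lower genes numbered 6 with Agilent's processed signals (2.88% of all genes tested), 1 with median centring (1.42%), 3 in Cy5 alone (2.33%) and 1 in the deposited table (1.67%), against 2.66% in the main setting. Within slides 1, 2 and 3 they numbered 2, 10 and 2 (2.44%, 6.61% and 1.6% of all genes). Higher genes numbered 2 with Agilent's processed signals (3.05%), with array weights (2.44%), and without GLU+GAL 4 and 12 (1.4%, chosen after seeing the data). They numbered 0 with median centring, in Cy5 alone, in the deposited table, and within slides 1, 2 and 3. The median difference was -0.093, against -0.038 with median centring, -0.061 in Cy5 alone, -0.019 in the deposited table, and -0.051, -0.19 and -0.035 within slides 1, 2 and 3. Means below GLU numbered 28, against 22 in the deposited table (44.2% of all genes) and 21, 30 and 20 within the slides (51.8%, 54.7% and 42.2%). Of the 18 gene pairs, 7 passed an adjusted p of 0.05, against 18 with median centring and 0, 0 and 3 within slides 1, 2 and 3. The signs of F2 (0.0025) and F10 (0.0058) were turned in the deposited table, and that of F2 within slide 1 (0.0057). The causes were not tested. Without GLU 3, 1 gene outside the list passed an adjusted p of 0.05, and 0 did without any other array.

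Leaving out each array in turn gave 8 to 15 lower and 0 to 2 higher genes, 26 to 28 means below GLU, a median of -0.10 to -0.078, 6 to 10 pairs, and 0 to 1 genes past an adjusted p of 0.05. The shares over all genes tested moved as well. Without GLU+GAL 4, 3.14% were lower, 1.49% higher and 53.9% had a mean below GLU. Without GLU+GAL 12 these shares were 2.69%, 1.52% and 49.7%. The shares without each of the other arrays are not given, so the ranges of counts have no matching ranges of shares. Of the 12 genes at an unadjusted p under 0.05, 8 stayed there whichever array was left out, and Fgg, Fgl1, F10 and Thbd did not.

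Mice with the same replicate number in both diets were not treated as pairs in the main fit. Their deviations correlated from -0.38 to 0.52, with 8 of 12 pairs over 0.1. Of 12 GLU+GAL mice, 4 correlated best with their own number, and some same-numbered mice shared a slide. Whether the numbers mark real pairs was not tested. With the replicate block, 12 genes were lower (3.89% of all genes) and 1 higher (2.13%), 4 pairs passed, and 0 genes passed an adjusted p of 0.05. The lowest adjusted p of any gene in limma was then 0.111, against 0.523 without the block. The pairs and chains have no value with array weights or a trended, robust fit, since these leave the values of a mouse as they are.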
